A study of Mus musculus with 4 samples.

Results

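C1q-positive cardiac macrophages are the leukocytes of the embryonic ventricle that carry transcripts of the complement genes *C1qa*, *C1qb* and *C1qc*. They were chosen by measured values: 700 to 7000 genes detected, at most 10% mitochondrial UMIs (unique molecular identifiers, 1 per captured transcript), under 0.5% of UMIs from the cardiomyocyte genes *Tnnt2*, *Actc1*, *Tnnc1* and *Ttn*, at most 2 UMIs of the endothelial genes *Pecam1*, *Cdh5*, *Emcn* and *Egfl7*, at least 3 UMIs of *Tyrobp* and *Fcer1g* together, and at least 3 UMIs of the 3 C1q genes together. This gave 559 macrophages of 45551 barcodes, 36590 of which passed the limits on genes and mitochondrial UMIs. By library there were 117, 79, 154 and 209 macrophages among 9595, 6388, 7988 and 12619 passing barcodes of control 1, control 2, eKO 1 and eKO 2. Values of the 4 libraries are given in this order throughout.

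Single-cell RNA was sequenced from mouse ventricles at embryonic day 14.5 to examine endothelial *Ets1* in the growth of the compact myocardium. Control embryos were *Tie2Cre*; *Ets1* fl/+ and *Ets1* eKO embryos were *Tie2Cre*; *Ets1* fl/fl, all untreated and on a C57BL/6 background, with 2 libraries in each group and 3 pooled ventricles in each library. Total UMIs were 124140739, 76931208, 95131419 and 102872196. Both groups carried Cre and at least 1 floxed allele, so no library stands for the unrecombined genotype. *Tie2Cre* is driven by the promoter of the endothelial receptor gene *Tek*, which is also active in blood progenitors, so that recombination is not limited to endothelium. The embryos were of both sexes and their sex was not recorded, and each value averages a pool.

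Macrophages enter the embryonic heart from yolk sac and later from fetal liver progenitors and depend on signalling through the receptor Csf1r. They clear dying cells, take up extracellular material and contribute to the remodelling of vessels and valves. C1q is the recognition molecule of the classical complement pathway: its A, B and C chains, all made by tissue macrophages, bind immune complexes and dying cells, and Tyrobp and Fcer1g are the adaptors through which many myeloid receptors signal.

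*Ets1*, the deleted gene (ENSMUSG00000032035, GRCm38, chromosome 9, 32636221 to 32757820), was measured first as a check of the labels. In 5838 endothelial barcodes it stood at 309 and 275 CPM (counts scaled to 1e6 UMIs of the summed cells) in controls but at 138 and 103 CPM in eKO libraries. It fell by 1.20 on the log2 scale (SE 0.16, n = 2 libraries per group, adjusted p = 0.0159, edgeR quasi-likelihood test), and both eKO libraries lay below both controls, as their labels state. The labels do not give the deleted exons, and 3′ counts can include transcripts of the recombined allele. In macrophages *Ets1* was scarce, with 9, 12, 14 and 8 UMIs, or 11.3, 19.0, 13.6 and 8.74 CPM. These values overlapped between the groups and the difference did not pass the test (log2 fold change -0.35 (SE 0.49), edgeR adjusted p = 0.935), with the sign reversed to 0.03 without control 2. With cells thinned to 2000 UMIs, 3.48, 5.06, 2.04 and 2.55% of macrophages held an *Ets1* UMI, against 0.964 to 2.20% of cardiomyocyte barcodes. Both eKO shares lay below both control shares, on 4, 4, 3 and 5 cells, also with all UMIs (6.84, 11.4, 6.49 and 3.83%), but at 1000 UMIs the difference turned from -1.97 to 1.30 points. Whether macrophages lost *Ets1* cannot be told from these counts.

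The genes that chose the cells are given as a description, without a test. *C1qa* (chromosome 4, 136895917 to 136898803) was present at 1752, 1919, 1789.9 and 1838 CPM in the 4 libraries. *C1qb* (chromosome 4, 136880129 to 136886187) stood at 2570.1, 2325, 2516 and 2863 CPM. *C1qc* (chromosome 4, 136889804 to 136893065) stood at 1737, 1552, 1507 and 1813 CPM. The 3 genes lie next to each other on the minus strand, and their levels overlapped between controls and *Ets1* eKO. The adaptors were at 2077, 2249, 2222 and 2200.3 CPM for *Tyrobp* and 2271, 2023, 2071 and 2428 CPM for *Fcer1g*. The median macrophage carried 42, 46, 38 and 27 C1q UMIs, lowest in eKO 2, the library with the fewest UMIs per barcode (a median of 6428 in passing barcodes). UMIs of all 3 C1q genes were found in 94.0, 96.2, 90.9 and 87.6% of macrophages. Few cells lay near the threshold: 1, 0, 4 and 6 macrophages had 3 or 4 C1q UMIs, and 8, 0, 3 and 13 leukocytes outside it had 1 or 2.

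The stretch before *C1qb* is shown because the 3 C1q transcripts were found in the same cells. It covers the 250 bases before the RefSeq start (GRCm38.p6, chr4:136886201-136886450, minus strand), outside the annotated gene, and the capitals mark GAGGAA, a sequence with the core that many ETS family factors bind.
C1qb: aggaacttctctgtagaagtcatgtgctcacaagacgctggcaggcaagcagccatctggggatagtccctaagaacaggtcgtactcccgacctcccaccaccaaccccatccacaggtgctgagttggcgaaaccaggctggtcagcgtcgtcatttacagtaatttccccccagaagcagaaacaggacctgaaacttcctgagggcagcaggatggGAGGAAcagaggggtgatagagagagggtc
GAGGAA was searched on both strands, where it reads TTCCTC on the other. The core GGAA also occurs in the *C1qb* stretch outside the capitals and is not marked there. At least 1 copy of GAGGAA occurred in 23.3% of 32851 promoter windows of this length. It occurred in 2 of 3 windows of the genes used for the choice, *C1qb* and *C1qc*, the latter overlapping an annotated gene. Among macrophage core genes GAGGAA occurred in 8 of 12 windows. The match describes these letters only.

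The macrophage sums held 794905, 632167, 1026888 and 914878 UMIs. The median macrophage had 6416, 7174, 6234 and 3905 UMIs and 2421, 2582, 2348 and 1734 genes, with eKO 2 below the other libraries. Mitochondrial UMIs made up a median of 3.12, 3.18, 2.51 and 2.32%, lower in both eKO libraries than in both controls. Of all barcodes, 191 occurred in more than 1 library, but none of the macrophages (0 of 559) shared one. Sex-linked transcripts set libraries apart within each group: *Xist*, made from the inactive X chromosome, was at 1.26, 503, 274 and 660.2 CPM and the Y-linked *Uty* at 103, 55.4, 37.0 and 0 CPM. Control 1 therefore held almost no *Xist* and eKO 2 no *Uty*, and the sex mix of the pools and the genotype cannot be told apart with 2 libraries in each group.

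Macrophages made up 1.22% (1.01 to 1.46), 1.24% (0.980 to 1.54), 1.93% (1.64 to 2.25) and 1.66% (1.44 to 1.89) of passing barcodes (exact 95% Clopper-Pearson interval, counting error only). Both eKO libraries lay above both controls. The mean was 1.23% ± 0.0122 (controls) against 1.79% ± 0.192 (eKO; SD, n = 2 libraries per group), a difference of 0.564 points. The exact two-sided permutation test gave p = 0.333, which is the smallest p that 2 against 2 libraries allow. Among barcodes with under 0.5% of UMIs from the cardiomyocyte genes, macrophages were 2.79, 2.18, 3.93 and 3.61%. Against the other leukocytes the order was different: macrophages were 70.5, 86.8, 79.0 and 76.0% of all leukocytes, with overlapping groups (exact permutation p = 1); the difference of -1.16 points became -9.33 without control 1, 7.01 without control 2, -2.65 without eKO 1 and 0.327 without eKO 2.

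Markers that had no part in the choice were those of macrophages. *Csf1r*, the receptor for CSF1 and IL-34, stood at 726, 789, 634 and 564 CPM in macrophages and 0.567, 0.614, 0.999 and 0.959 CPM in endothelial barcodes. *Adgre1*, which encodes the surface protein F4/80, stood at 409, 446, 305 and 324 CPM, the lysosomal marker *Cd68* at 262, 286, 251 and 282 CPM and the Fc receptor gene *Fcgr1* at 175, 179, 193 and 202 CPM. Each of these was present in every library. *Cx3cr1*, the fractalkine receptor, was at 824, 747, 871 and 576 CPM and the mannose receptor gene *Mrc1* at 923, 861, 687 and 584 CPM. Of the 15 macrophage core genes all were detected, led by *Lyz2*, *Ctss* and *Cx3cr1* with means of 964 CPM ± 74.1, 940.5 CPM ± 206 and 754 CPM ± 129 (SD, n = 4 libraries).

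The nearest other class was the C1q-negative leukocytes, 49, 12, 41 and 66 barcodes that met every other limit but held 0 to 2 C1q UMIs. This class was a mixture: its neutrophil genes summed to 884, 153, 12613 and 5449 CPM, its mast cell genes to 1663, 335, 536 and 693 CPM and its erythroid genes to 6982, 55.8, 253 and 289 CPM. Since C1q UMIs separated both classes, their levels were compared without a test. *Mrc1* was at 0, 0, 3.89 and 0 CPM there, *Lyve1* and *Folr2* had no UMI, and *Trem2*, a lipid-sensing receptor, was at 104, 83.7, 89.4 and 104 CPM against 440.3, 459, 419 and 459 CPM in macrophages. *Plac8* and *Ccr2*, genes of monocytes, ran the other way, at 979, 1255, 1384 and 1894 CPM and 318, 516, 494 and 322 CPM against 118, 91.7, 262 and 271 CPM and 117, 45.9, 131 and 105 CPM in macrophages. *Cd74*, the invariant chain of MHC class II, was at 959.6, 655, 742 and 589.5 CPM against 198, 44.3, 152 and 156 CPM. In each library, then, the macrophages were richer in *Mrc1*, *Lyve1*, *Folr2* and *Trem2* and poorer in *Plac8*, *Ccr2* and *Cd74* than the C1q-negative leukocytes.

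**Figure D1:**
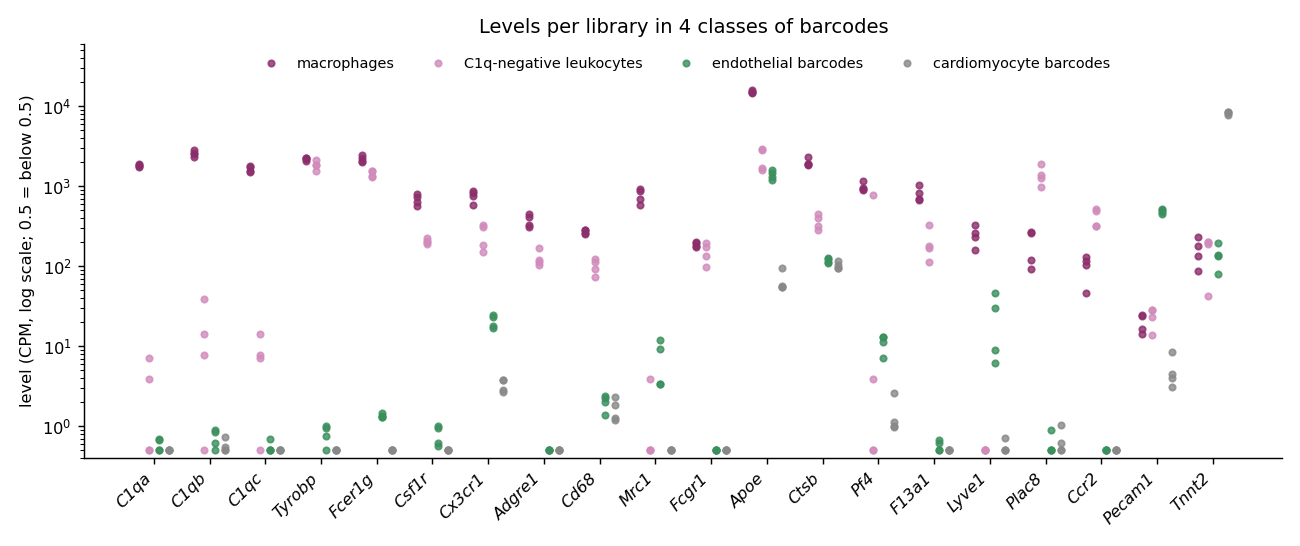
Level of 20 genes in CPM (log axis) in macrophages, C1q-negative leukocytes, endothelial barcodes and cardiomyocyte barcodes, with 1 point per library and values under 0.5 CPM drawn at 0.5. *Csf1r* lies between 564 and 789 CPM in macrophages and under 1 CPM in endothelial barcodes; the C1q genes, *Tyrobp*, *Fcer1g*, *Pecam1* and *Tnnt2* were used to choose the classes.

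Markers of other cell types were measured in the same sums. The lists for neutrophils (11 genes), mast cells (9), megakaryocytes (8), lymphoid cells (10) and epicardium (8) summed to at most 84.3 CPM in any library, with *Csf3r*, *Kit*, *Gp9*, *Cd79b* and *Wt1* as their most abundant genes. *Ly6g*, *Retnlg*, *Cpa3*, *Mcpt4*, *Cd3e*, *Cd3d*, *Nkg7*, *Gp1bb* and *Msln* had no UMI in any macrophage. The 13 endothelial genes summed to 83.0, 82.3, 88.6 and 110.4 CPM, led by *Fabp4*. The 14 cardiomyocyte genes were all detected, summed to 1228, 599.5, 944 and 1488 CPM and were led by *Tpm1*; control 2 was lowest. The cardiomyocyte sums overlapped between the groups, the endothelial sums were slightly higher in both eKO libraries, and their part in the results was not tested. Both lists include the genes that the choice of cells capped, so low sums follow in part from that choice.

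Mesenchymal transcripts were concentrated in a few barcodes of each library, and hemoglobin transcripts were so in eKO 1 and, to a lesser degree, in eKO 2. The 11 erythroid genes, led by *Hbb-bs*, summed to 249, 128, 9759.6 and 456 CPM, and 1 cell of eKO 1 held 9763 of its 10008 hemoglobin UMIs. In control 1, control 2 and eKO 2 the top cell held 6 of 199, 7 of 81 and 134 of 419 hemoglobin UMIs. The 9 fibroblast and mesenchyme genes, led by *Col3a1*, summed to 109, 755, 212 and 257 CPM, highest in control 2. Of the UMIs of *Col1a1*, *Col1a2*, *Col3a1* and *Postn*, 61.2, 97.1, 87.5 and 91.6% lay in the 2, 6, 8 and 6 barcodes with over 3 of them, without which the 9 genes summed to 37.6, 24.6, 25.9 and 24.5 CPM.

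Whether genotype changed macrophage transcripts was asked with the library as the unit. None of 8116 genes tested passed an adjusted p of 0.05 by edgeR (0%), and 506 (6.23%) had an unadjusted p under 0.05, of which 203 were higher (2.5%) and 303 lower (3.73%) in *Ets1* eKO. Across all genes the log2 fold change had a median of 0.01, or -0.04 under total count scaling. DESeq2 called 1 gene, *Ctnna2*, and leaving out 1 library called 247 genes without control 1, 22 without control 2, 2 without eKO 1 and 4 without eKO 2. The genes called included *Xist* and *Uty* without control 2, *Uty* and *Eif2s3y* without eKO 1 and 4 hemoglobin genes without eKO 2. Without barcodes that held over 3 mesenchymal UMIs, 8 genes passed: *Plac8*, *Spp1*, *Tgm2*, a predicted gene and 4 hemoglobin genes.

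The genes of smallest p are given as values that did not pass. *Plac8*, expressed in monocytes, was at 118 and 91.7 CPM (controls) against 262 and 271 CPM (eKO) (log2 fold change 1.38 (SE 0.20), edgeR adjusted p = 0.162); with cells thinned to 2000 UMIs its log2 fold change was 0.72. *Tgm2*, a transglutaminase used in the uptake of dying cells, was at 70.4 and 60.1 CPM (controls) against 161 and 144 CPM (eKO). *Isg15*, an interferon-induced ubiquitin-like modifier, was at 66.7 and 52.2 CPM (controls) against 151 and 121 CPM (eKO). All 3 were higher in both eKO libraries than in both controls. *Spp1*, which encodes osteopontin, was at 242 and 60.1 CPM (controls) against 673 and 613 CPM (eKO), higher in both eKO libraries, with the controls far apart. *Spp1* UMIs sat in few cells: 2.61, 6.33, 6.12 and 10.2% of macrophages held 1 after thinning, against 0.0438 to 0.214% of cardiomyocyte barcodes. In the other direction, *Nfkbiz*, a nuclear regulator of NF-kappaB targets, was at 694 and 783 CPM (controls) against 403 and 355 CPM (eKO), and *St3gal6*, a sialyltransferase, at 102 and 90.2 CPM (controls) against 41.9 and 44.8 CPM (eKO). *Ctnna2*, an alpha-catenin, was at 71.7 and 172 CPM (controls) against 17.5 and 17.5 CPM (eKO), the transcription factor gene *Foxp2* at 34.0 and 72.8 CPM (controls) against 11.7 and 14.2 CPM (eKO), and the matrix gene *Abi3bp* at 35.2 and 19.0 CPM (controls) against 0 and 1.09 CPM (eKO). All 5 sums were lower in both eKO libraries than in both controls. Without the barcodes that held over 3 mesenchymal UMIs, *Ctnna2* had 1, 0, 9 and 0 UMIs left of 57, 109, 18 and 16, *Foxp2* 2, 2, 0 and 2 of 27, 46, 12 and 13, and *Abi3bp* 0, 0, 0 and 1 of 28, 12, 0 and 1, too few to test. Most UMIs of these 3 genes thus lay in a few barcodes with mesenchymal UMIs, while *Nfkbiz* and *St3gal6* kept their levels (702, 815, 419 and 361 CPM and 105, 96.7, 41.4 and 45.6 CPM). The adjusted p of the named genes ranged from 0.162 to 0.619 (edgeR).

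**Figure D2:**
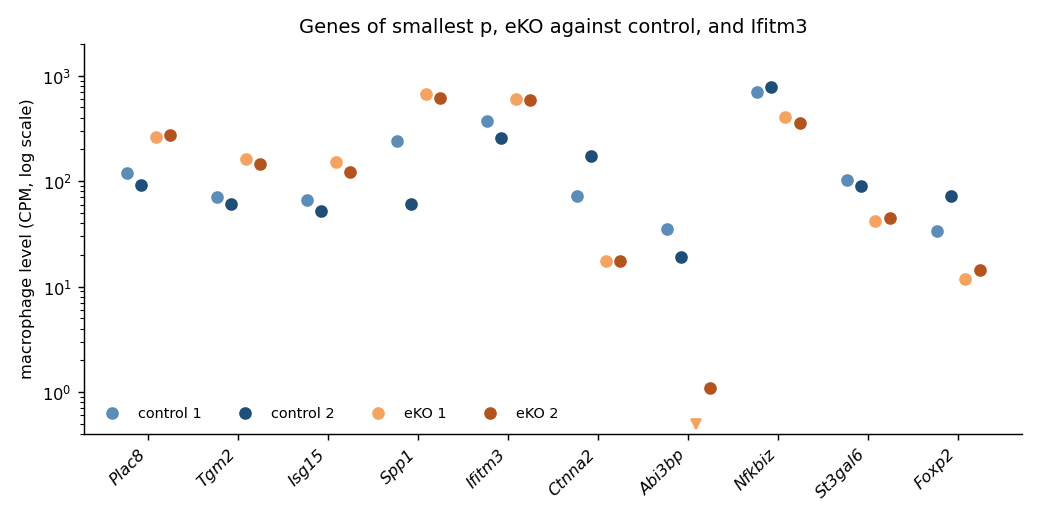
Macrophage level in CPM (log axis) of the named genes of smallest p and of *Ifitm3* in each library, with a triangle for a level of 0; the *Ctnna2*, *Abi3bp* and *Foxp2* levels come mostly from barcodes with mesenchymal UMIs. *Plac8* lies at 118 and 91.7 CPM (controls) against 262 and 271 CPM (eKO); none of these genes passed in edgeR.

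Beyond C1q, the complement genes of macrophages included receptors. *C3ar1*, the receptor for the C3a fragment, was at 390.0, 430.3, 323 and 368 CPM. *C5ar1*, the receptor for C5a, was at 230.2, 179, 134 and 129 CPM. Both were lower in both eKO libraries than in both controls, but neither passed (log2 fold change -0.20 and -0.60). The remaining cascade was sparse: *C3* was at 2.52, 0, 5.84 and 6.56 CPM, and *C1s1*, *Cd55* and *Cfd* had no UMI. Of 20 listed genes 17 were detected and 8 could be tested, 1 of them lower and 0 higher at an unadjusted p under 0.05 (all genes 3.73 and 2.5%), with a list median of 0.02 that turned to -0.02 under total count scaling.

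Receptors and adaptors for uptake were widely expressed. The scavenger receptor gene *Stab1* was at 470.5, 519, 424 and 395 CPM, *Trem2* at 440.3, 459, 419 and 459 CPM and *Elmo1*, a regulator of Rac in engulfment, at 440.3, 462, 396 and 309 CPM. *Mertk*, a receptor for dying cells, was at 302 and 269 CPM (controls) against 192 and 158 CPM (eKO) and the scavenger receptor gene *Cd36* at 257 and 288 CPM (controls) against 177 and 165 CPM (eKO). Both lay lower in each eKO library than in each control without passing the test (log2 fold change -0.66 (SE 0.19) and -0.62 (SE 0.18), edgeR adjusted p = 0.707 for both). Of 27 listed genes in the files 26 were detected, *Marco* had no UMI, and 20 were tested: 2 were lower and 0 higher at an unadjusted p under 0.05 (all genes 3.73 and 2.5%), with a list median of -0.26.

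Genes of digestion and storage were among the strongest signals of the macrophages. The lysosomal proteases *Ctsb*, *Ctsd* and *Ctsc* stood at 1987 CPM ± 207, 1199.8 CPM ± 196 and 1021 CPM ± 98.5 (SD, n = 4 libraries). All 27 lysosomal genes were detected and summed to 12608, 13572, 12489 and 12612 CPM, a spread in which the groups overlapped. Of 26 tested, 1 was higher and 1 lower at an unadjusted p under 0.05 (all genes 2.5 and 3.73%), and the list had a median of -0.04. *Apoe*, the lipid carrier, stood at 15017, 14925, 14846 and 16121 CPM, *Plin2*, which coats lipid droplets, at 478, 666, 381 and 586 CPM. Of 16 lipid-handling genes tested, 1 was higher and 2 lower at that p, against the same shares of all genes, the median being 0.01, or -0.04 under total count scaling.

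Iron storage transcripts were abundant as well. The ferritin chains *Ftl1* and *Fth1* stood at 9265, 8784, 8334 and 9976 CPM and 6984, 6095, 6367 and 7606 CPM. *Hmox1*, which opens heme, was at 311, 226, 264 and 429.6 CPM, *Blvrb*, which acts on its product biliverdin, at 463, 339, 286 and 386 CPM, and the iron exporter gene *Slc40a1* at 254, 168, 140.2 and 161 CPM. The groups overlapped for all of these but *Slc40a1*, which was lower in both eKO libraries. None of 13 heme and iron genes tested had an unadjusted p under 0.05 in edgeR, where 6.23% of all genes did. Their median was -0.16.

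Transcription factors of the myeloid lineage were present in every library. *Zeb2*, *Maf* and *Mef2c* had means of 1043 CPM ± 160.3, 867 CPM ± 151 and 683 CPM ± 129.5 (SD, n = 4 libraries). The ligands *Il34* and *Csf2* had no UMI in macrophages. Of 18 genes of the CSF1 axis and myeloid factors tested, 3 were higher at an unadjusted p under 0.05 (*Id3*, *Batf3* and *Nr1h3*) and 0 lower, against 2.5 and 3.73% of all genes, and the median was 0.03, or -0.02 under total count scaling. Among ETS family factors *Spi1*, which encodes PU.1, was at 438, 367, 392 and 449 CPM, *Fli1* at 283, 313, 265 and 209.9 CPM and *Etv6* at 273, 267, 276 and 214 CPM. *Spib* and *Etv2* had no UMI. Of 15 ETS genes tested 1, *Elf1*, was lower at an unadjusted p under 0.05, where 3.73% of all genes were (165 and 201 CPM (controls) against 121 and 117 CPM (eKO)), with a list median of -0.06. *Tek* itself, the gene behind the Cre driver, was at 1.26, 1.58, 4.87 and 4.37 CPM, and the co-receptor gene *Nrp1* at 284, 252, 229.8 and 161 CPM.

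Transcripts of chemokines and cytokines were abundant. *Ccl4*, a chemoattractant for leukocytes, was at 1506, 1550.2, 1095 and 1998 CPM, *Pf4* at 1159, 930.1, 951 and 909 CPM and *Cxcl2* at 827, 906, 590.1 and 790.3 CPM. Of 18 tested, 2 were lower (*Ccl2* and *Ccl12*) and 0 higher at an unadjusted p under 0.05, against 3.73 and 2.5% of all genes. *Il1b*, which encodes interleukin-1 beta, was at 674, 418, 508 and 585 CPM, *Nfkbia*, the inhibitor of NF-kappaB, at 854, 713, 496 and 697 CPM and the inflammasome sensor gene *Nlrp3* at 354, 372, 191 and 240.5 CPM. *Nlrp3* was the 1 gene of 9 inflammatory genes tested with an unadjusted p under 0.05, against 6.23% of all genes, and was lower in both eKO libraries. *Il6*, *Il12b* and *Nos2* had no UMI in any macrophage. The medians were -0.18 for chemokines and receptors and -0.15 for inflammatory genes.

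Signals to other cells were also present. After *Apoe*, the most abundant of 29 growth factor and matrix genes were the progranulin gene *Grn* at 532, 576, 478 and 493 CPM and *Spp1*. *Igf1*, insulin-like growth factor 1, was at 238, 359, 219 and 225 CPM and *Tgfb1*, transforming growth factor beta 1, at 283, 272, 195 and 218 CPM. Both *Igf1* and *Tgfb1* were lower in each eKO library than in each control without passing the test. Of 23 genes tested 1 was higher (*Spp1*) and 2 lower (*Adam9* and *Hbegf*) at an unadjusted p under 0.05, against 2.5 and 3.73% of all genes, and 19 had a negative fold change (median -0.27, against 0.01 for all genes).

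Interferon-induced genes had the same sign throughout. Of 20 tested, 0 passed and 9 had an unadjusted p under 0.05, all 9 higher in *Ets1* eKO, where 2.5% of all genes were; all 20 fold changes were above 0, with a median of 0.63 against 0.01 for all genes. The list summed to 2960.1, 2406, 4045 and 3596 CPM, so that both eKO libraries lay above both controls. This order was not particular to macrophages: in C1q-negative leukocytes the list summed to 3647, 4267, 4863 and 4988 CPM. The fold change in macrophages minus that in endothelial barcodes had a list median of -0.52, against 0.02 for all genes. *Ifitm3*, a membrane protein that restricts virus entry, was at 369 and 255 CPM (controls) against 601 and 584 CPM (eKO) and *Ifi27l2a* at 452 and 319.5 CPM (controls) against 683 and 496 CPM (eKO). *Ifi207*, the most abundant member, was at 529.6, 465, 522 and 520.3 CPM with overlapping groups. eKO 1 stood above the other 3 libraries for *Rsad2* and *Ifit3* (7.55, 22.1, 59.4 and 18.6 CPM and 27.7, 19.0, 61.4 and 28.4 CPM).

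Genes of monocytes and antigen presentation were present in part. *Ms4a6c*, *Plac8* and *Nr4a1* led the 15 monocyte genes at 497, 369, 529.8 and 520.3 CPM, 118, 91.7, 262 and 271 CPM and 208, 149, 114 and 121 CPM, and *Chil3* and *Ace* had no UMI. Of 9 tested, 2 were higher (*Plac8* and *Ms4a4c*) and 1 lower (*Nr4a1*) at an unadjusted p under 0.05 (all genes 2.5 and 3.73%), with a median of 0.27. *Irf8*, a factor of monocytes and dendritic cells, stood at 213, 195, 207 and 195 CPM, *Cd74* at 198, 44.3, 152 and 156 CPM and *H2-DMa* at 56.6, 30.1, 39.0 and 42.6 CPM, while *Xcr1* and *Cd209a* had no UMI. Control 2 was lowest for both *Cd74* and *H2-DMa*, and 1 of 7 genes tested, *Batf3*, was higher at that p and 0 lower, against 2.5 and 3.73% of all genes (list median 0.27).

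All listed genes of resident macrophages and of the microglia type were detected. *Pf4*, *Maf* and *F13a1*, the coagulation factor XIII A chain, led the 18 genes of the resident *Lyve1* type, with *F13a1* at 829, 685, 1026 and 674 CPM. *Lyve1*, the hyaluronan receptor, was at 259, 158, 331 and 235 CPM and *Timd4*, a phosphatidylserine receptor, at 10.1, 7.91, 11.7 and 6.56 CPM. Of 14 tested, *Mrc1* and *Selenop* (2 genes) were lower at an unadjusted p under 0.05 and 0 higher, where 3.73% of all genes were lower and 2.5% higher (list median -0.18). *Cx3cr1*, *Trem2* and *Fcrls* led the 13 genes of the microglia type, with *Fcrls* at 386, 514, 349.6 and 366 CPM, and the microglial factor gene *Sall1* had 1 UMI in all libraries together. Of 10 tested, 2 were lower and 0 higher at that p, against 3.73 and 2.5% of all genes (list median -0.20).

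Cell cycle genes were detected in full. *Pcna*, *Mcm3* and *Slbp* led the S phase list, which summed to 993, 879.5, 666 and 884 CPM. Of 18 tested, 0 had an unadjusted p under 0.05 in edgeR, against 6.23% of all genes (list median -0.26). *Top2a*, *Mki67* and *Ube2c* led the genes of G2 and mitosis, which summed to 2052, 1123, 2049 and 2089 CPM. Control 2 was low, while control 1 was close to both eKO libraries. Of 24 tested, 6 were higher and 0 lower at an unadjusted p under 0.05, against 2.5 and 3.73% of all genes, among them *Cdc20*, an activator of the anaphase-promoting complex, at 13.8 and 6.33 CPM (controls) against 35.1 and 30.6 CPM (eKO) (list median 0.39). With at least 3 cell cycle UMIs of 2000 as the measure, 38.3, 29.1, 34.0 and 42.9% of macrophages counted as cycling, with overlapping groups (exact permutation p = 0.667). The difference of 4.75 points became 9.32 without control 1, 0.175 without control 2, 9.17 without eKO 1 and 0.326 without eKO 2. In cardiomyocyte barcodes the share was 47.8 to 58.8%, and with all UMIs the macrophage means were 68.6 and 60.9% in controls and *Ets1* eKO, so the direction was the opposite. Macrophages with 2 or 3 such UMIs, next to the limit, numbered 19 and 8, 9 and 4, 19 and 8, and 25 and 12.

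Immediate early and stress genes were high in all libraries. *Fos*, *Hsp90ab1* and *Jun* led at 2755, 2156, 2138 and 1843 CPM, 1681, 1708, 1890.2 and 2242 CPM and 2008, 1631, 1438 and 1373 CPM. The 22 genes summed to 19421, 16097, 14641 and 15013 CPM, lower in both eKO libraries than in both controls. Of these, 5 were lower (*Egr1*, *Btg2*, *Zfp36*, *Fosb* and *Nr4a1*) and 0 higher at an unadjusted p under 0.05, against 3.73 and 2.5% of all genes, with a median of -0.34. Mitochondrial transcripts, led by *mt-Co3*, *mt-Atp6* and *mt-Co2*, summed to 30816, 31493, 25653 and 25414 CPM and were also lower in both eKO libraries. The same order was found in C1q-negative leukocytes, where they summed to 26452, 29254, 24942 and 24316.5 CPM. The nuclear and ribosomal RNA-type transcripts, led by *Malat1*, *Gm42418* and *Neat1*, summed to 14208, 16212, 15587 and 11329 CPM, with overlapping groups. Of these 9 genes 2 were lower and 0 higher at an unadjusted p under 0.05 (all genes 3.73 and 2.5%), with a median of -0.32. The part of dissociation or RNA quality in these values was not tested.

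The share of macrophages with a UMI of each gene was compared at equal depth, with 2000 UMIs drawn per cell and 2, 0, 7 and 13 shallower macrophages left out. *Mrc1* UMIs were found in 53.9, 57.0, 44.9 and 45.4% of macrophages, or 55.4% ± 2.16 (controls) against 45.2% ± 0.361 (eKO) (SD, n = 2 libraries per group), with both eKO libraries below both controls. For *Csf1r* the shares were 74.8, 82.3, 72.1 and 68.4%, or 78.5% ± 5.30 (controls) against 70.2% ± 2.65 (eKO), also without overlap. *Ccr2* and *Cd74* ran the other way, with 11.8% ± 4.19 (controls) against 17.3% ± 3.49 (eKO) and 7.55% ± 5.31 (controls) against 14.9% ± 3.01 (eKO), although control 1 and eKO 2 were nearly level for *Ccr2* and the *Cd74* shares were 11.3, 3.80, 17.0 and 12.8%. Control 2 carried much of these differences: without it that of *Csf1r* went from -8.29 to -4.54 points, that of *Ccr2* from 5.44 to 2.48 and that of *Cd74* from 7.33 to 3.58. Without control 1, that of *Ccr2* was 8.40 and that of *Cd74* 11.1, and without eKO 1 that of *Ccr2* was 2.97. At 1000 UMIs per cell, that of *Ccr2* was 1.52 and that of *Cd74* 3.06. Without mesenchymal barcodes the *Mrc1* difference went from -10.3 to -13.5, that of *Cd74* to 3.47 and that of *Lyve1* from 0.414 to -1.63. Leaving out 1 library moved that of *Lyve1* to 2.98 (control 1), -2.15 (control 2), -0.182 (eKO 1) and 1.01 (eKO 2). For *Lyve1* the means were 14.0% ± 3.63 (controls) against 14.4% ± 0.842 (eKO), and the groups overlapped. The exact permutation p was 0.333 for *Mrc1*, *Csf1r*, *Ccr2* and *Cd74*, the smallest that 2 against 2 libraries allow, and 1 for *Lyve1*. In cardiomyocyte barcodes, with medians of 13294.5, 13787.5, 13542 and 8582 UMIs before thinning, the shares were 0 to 0.0536% for *Mrc1*, 0 to 0.111% for *Csf1r*, 0 to 0.0179% for *Ccr2*, 0.0876 to 0.222% for *Cd74* and 0 to 0.0893% for *Lyve1*. With all UMIs the control and eKO means were 70.9 and 52.4% for *Mrc1*, 97.7 and 87.9% for *Csf1r*, 19.1 and 25.3% for *Ccr2*, 23.4 and 23.9% for *Cd74* and 21.2 and 19.0% for *Lyve1*.

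**Figure D3:**
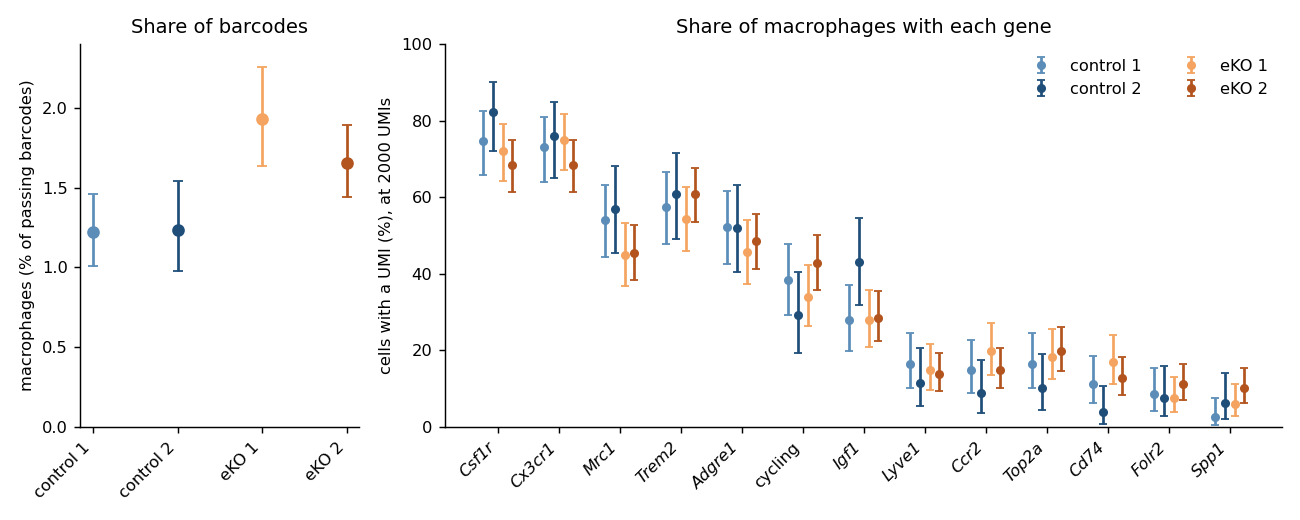
Left, macrophages in percent of passing barcodes of each library; right, percent of macrophages with at least 1 UMI of a gene (for cycling, at least 3 UMIs of cell cycle genes) at 2000 UMIs per cell, with exact 95% intervals as bars. The macrophage share is 1.22 and 1.24% (controls) against 1.93 and 1.66% (eKO).

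How macrophages differed among themselves was asked by splitting them on *Lyve1* at 2000 UMIs, with 19, 9, 22 and 27 *Lyve1*-positive cells (77) and 460 *Lyve1*-negative cells, and testing the other genes with the library as a block. Of 2448 genes tested, 289 passed an adjusted p of 0.05 in edgeR (11.8%): 98 were higher (4%) and 191 lower (7.8%) in *Lyve1*-positive cells. DESeq2 called 114. Without control 1, eKO 1 and eKO 2 in turn, 160, 187 and 157 genes passed. Total count scaling called 248, 123 higher and 125 lower, and moved the median of all genes from -0.01 to 0.10.

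*Lyve1*-positive macrophages were rich in the listed genes of the resident *Lyve1* type. That list is named for the gene that made the split, so its rise describes the split and is not independent support for residency. Of 13 tested, 10 rose and 1 fell, where 4% of all genes rose and 7.8% fell (median log2 fold change 1.69, against -0.01 for all genes). *F13a1* stood at 2617 against 418 CPM in *Lyve1*-positive and *Lyve1*-negative cells (log2 fold change 2.51 (SE 0.13), edgeR adjusted p = 3.26e-44). *Mrc1* stood at 2312 against 485 CPM (2.13 (SE 0.13)) and *Pf4*, a platelet factor chemokine that macrophages also make, at 2974 against 635 CPM (2.11 (SE 0.12)). These 3 genes were higher in the *Lyve1*-positive cells of all 4 libraries. *Ednrb*, the endothelin receptor B, stood at 552 against 91.3 CPM (2.50 (SE 0.26)), the scavenger receptor gene *Stab1* at 1136 against 327 CPM (1.69 (SE 0.17)) and the folate receptor gene *Folr2* at 162 against 39.1 CPM (1.95 (SE 0.52)). Of the genes whose detection was counted, *Mrc1* UMIs were found in 96.1% of *Lyve1*-positive and 40.9% of *Lyve1*-negative cells and *Folr2* UMIs in 23.4 and 6.74%, while *Timd4* UMIs were found in 1.30 and 1.96%.

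The other genes of largest increase had several roles. *Colec12*, a scavenger receptor with a collectin domain, stood at 734 against 119.6 CPM (2.52 (SE 0.23)), the chemokine gene *Ccl24* at 370.1 against 77.2 CPM (2.18 (SE 0.31)) and *Igfbp4*, which binds insulin-like growth factors, at 370.1 against 78.3 CPM (2.13 (SE 0.30)). *Npl*, an enzyme of sialic acid breakdown, rose by 2.24 on the log2 scale, the endocytic scaffold gene *Itsn1* by 2.44 and the talin gene *Tln2* by 2.22. *Nrap*, a gene known from striated muscle, rose by 2.49 on 15 UMIs. *Npl*, *Tln2* and *Nrap* were not called by DESeq2, where a gene without an adjusted p counted as not called. *Nrap* did not pass without control 2, and *Itsn1* rose by 1.56 without mesenchymal barcodes. Against 4% of all genes that rose and 7.8% that fell, of 10 heme and iron genes tested 2 rose, *Hmox1* (1.42) and *Blvrb* (0.88), and 3 fell, *Lrp1* (-1.24), *Fth1* (-0.34) and *Ftl1* (-0.25). Of 11 lipid-handling genes, against the same shares, 1 rose, the cholesterol exporter gene *Abca1* (0.74), and 3 fell, *Lgals3* (-3.27), *Fabp5* (-1.71) and *Apoc1* (-0.74), with a list median of -0.29. *Nrp1*, a co-receptor for VEGF and semaphorins, rose by 1.30, as did *Gas6* (1.27), a ligand that bridges dying cells to Mertk.

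Genes that fell included those of monocytes and inflammation. Of 5 monocyte genes tested 4 fell (median -2.75) and of 6 inflammatory genes 5 fell (median -1.51), against 7.8% of all genes. *Plac8*, *Tgm2* and *Ccr2* had 0 UMIs in *Lyve1*-positive cells and 225, 136 and 127 UMIs in *Lyve1*-negative cells, so they were at least 12.6-fold, 7.59-fold and 7.09-fold lower against a floor of 3 UMIs over the group (19.5 CPM). The same held for the cytokine gene *Il1a*, the stress gene *Fam129a* and the adhesion receptor gene *Adgrl3*, at least 7.31-fold, 7.14-fold and 6.64-fold lower. *Rgs1*, *Cd74* and the matrix gene *Thbs1* had 1 UMI each in *Lyve1*-positive cells and were 39.8-fold (95% interval 7.08 to 1580), 30.3-fold (5.37 to 1203) and 17.7-fold lower (3.12 to 707), by exact counting intervals. These intervals pool UMIs over all libraries and leave out variation between cells and between libraries. None of these 9 sparse genes was called by DESeq2, which gave an adjusted p to only 987 genes. A gene without one counted as not called, so this need not be a failed test. Without mesenchymal barcodes *Fam129a* had a log2 fold change of -2.43. *Il1b* stood at 58.4 against 753 CPM (-3.78 (SE 0.33)), *Tnf* at 84.4 against 293 CPM (-1.85 (SE 0.36)) and the chemokine gene *Ccl4* at 617 against 1911 CPM (-1.78 (SE 0.15)). No *Ccr2* UMI was found in 77 *Lyve1*-positive cells, against 82 of 460 *Lyve1*-negative cells (17.8%).

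Other groups differed in direction, where 4% of all genes rose and 7.8% fell. Interferon-induced genes fell in 4 of 11 tested (*Ifitm3* with a log2 fold change of -3.30, then *Isg15*, *Ifi27l2a* and *Ly6e*) and rose in 0. Chemokines and receptors rose in 3 (*Pf4*, *Ccl24*, *Ccl2*) and fell in 5 (*Ccr2*, *Cxcl16*, *Ccl4*, *Ccl3*, *Cxcl2*) of 16. Immediate early genes rose in 2 (*Jun* and *Klf2*) and fell in 7 of 18, led by *Nr4a1* (-2.20). Of ETS factors *Fli1* rose (0.84) and *Etv6* fell (-1.11). *Plac8*, *Tgm2*, *Isg15*, *Spp1* and *Ifitm3*, which had higher values in *Ets1* eKO, were all lower in the sums of *Lyve1*-positive cells, while the *Lyve1*-positive share itself overlapped between the groups. Pooled over libraries, *Spp1* detection ran the other way, with UMIs in 11.7% of *Lyve1*-positive (9 of 77) and 6.09% of *Lyve1*-negative cells (28 of 460). By library, *Lyve1*-positive cells with an *Spp1* UMI numbered 0 of 19, 0 of 9, 2 of 22 and 7 of 27. *Lyve1*-negative cells with one numbered 3 of 96, 5 of 70, 7 of 125 and 13 of 169. Detection was thus lower in the *Lyve1*-positive cells of both controls and higher in those of both eKO libraries. Of the cell cycle genes 1, *Cenpf*, rose (1.26), and 50.6% of *Lyve1*-positive and 35.2% of *Lyve1*-negative cells counted as cycling.

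**Figure D4:**
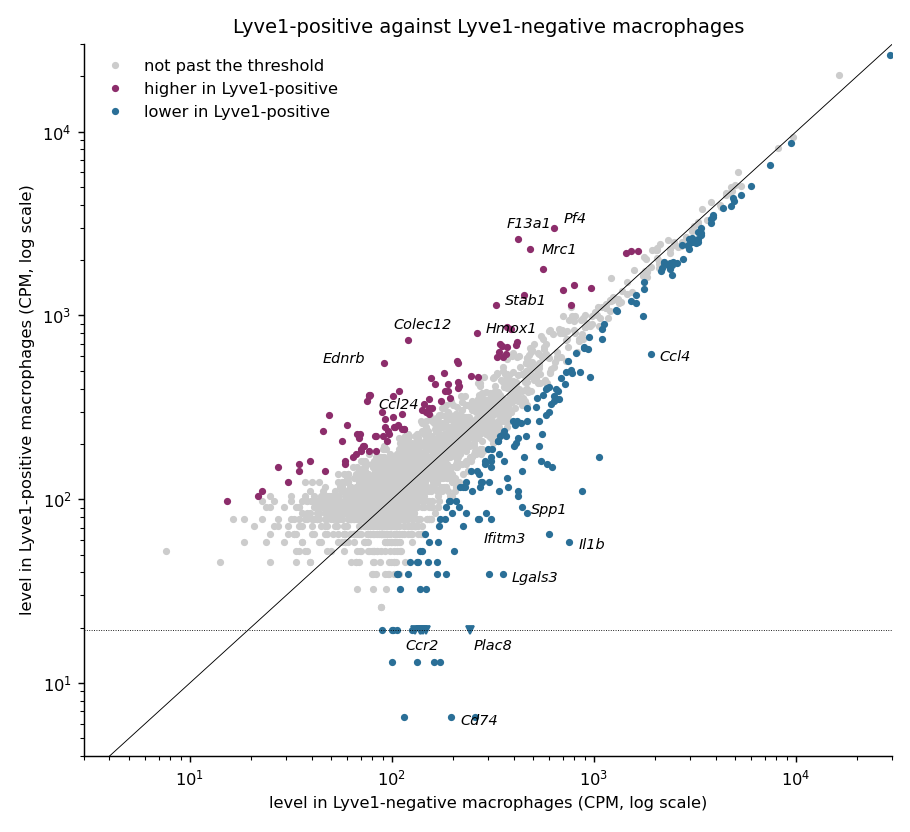
Level of each gene in *Lyve1*-negative (x) and *Lyve1*-positive macrophages (y), in CPM on log axes, with genes past the adjusted threshold in colour, the line of equal level, and triangles at the dotted floor of 19.5 CPM for genes with 0 UMIs. *F13a1* lies at 418 and 2617 CPM and *Il1b* at 753 and 58.4 CPM.

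Whether the fold change between the genotypes differed between macrophages and endothelial barcodes was tested with a class-by-genotype term. Of 13813 genes 15 passed (0.109%, edgeR), 7 with a higher and 8 with a lower fold change in macrophages. DESeq2 called 5, and the count was 349 without control 1, 71 without control 2, 1 without eKO 1 and 5 without eKO 2. Without barcodes with over 3 mesenchymal UMIs it was 56.

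In the genes of smallest p the endothelial barcodes changed more than the macrophages. *Mt1*, a metallothionein that binds zinc and copper, was at 564 and 1104 CPM (controls) against 807 and 473 CPM (eKO) in macrophages and 11.0 and 10.9 CPM (controls) against 248 and 199 CPM (eKO) in endothelial barcodes. The fold change in macrophages minus that in endothelial barcodes was -4.67 (SE 0.25) on the log2 scale (edgeR adjusted p = 9.64e-08). *Lgals1*, which encodes galectin 1, was at 645 and 1104 CPM (controls) against 786 and 879.9 CPM (eKO) in macrophages and 287 and 361 CPM (controls) against 895 and 989.9 CPM (eKO) in endothelial barcodes, a difference of -1.55 (SE 0.15) (edgeR adjusted p = 1.80e-04). In both genes the endothelial eKO libraries lay above their controls and the macrophage libraries overlapped. *Lyve1* was at 9.06 and 6.14 CPM (controls) against 45.9 and 29.8 CPM (eKO) in endothelial barcodes and at overlapping levels in macrophages, a difference of -1.85 (SE 0.19). *Inpp5d*, which encodes the phosphatase SHIP1, was at 284 and 275 CPM (controls) against 269 and 203 CPM (eKO) in macrophages and 47.7 and 48.3 CPM (controls) against 16.7 and 13.9 CPM (eKO) in endothelial barcodes, a difference of 1.41 (SE 0.18). *Lcp1*, an actin-bundling protein of leukocytes, was at 523 and 527 CPM (controls) against 520.0 and 517 CPM (eKO) in macrophages and 64.5 and 64.2 CPM (controls) against 26.7 and 25.8 CPM (eKO) in endothelial barcodes, a difference of 1.29 (SE 0.16). *Inpp5d* and *Lcp1* were thus lower in both endothelial eKO libraries, while *Lcp1* was nearly level across macrophage libraries and *Inpp5d* was also lower in both macrophage eKO libraries, by less. *Mt1* passed in all 4 fits that left out 1 library, and *Lgals1*, *Lyve1*, *Inpp5d* and *Lcp1* did not pass without eKO 1 or without eKO 2.

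The other 10 genes of that comparison were *Abi3bp*, *Gas6*, *Slc9a9*, *Ccl2*, *Hspa1a*, *Slfn5*, *Mrc1*, *Fos*, *Hes1* and *Mmp16*. The *Abi3bp* UMIs of macrophages lay mostly in the barcodes with mesenchymal UMIs described above. *Mrc1* was at 11.8 and 9.12 CPM (controls) against 3.38 and 3.32 CPM (eKO) in endothelial barcodes, and its fold change in macrophages minus that in endothelial barcodes was 1.16 (SE 0.20). *Gas6* was at 20.2 and 25.5 CPM (controls) against 46.1 and 43.7 CPM (eKO) in endothelial barcodes and 161 and 177 CPM (controls) against 125 and 134 CPM (eKO) in macrophages, higher in *Ets1* eKO in the former and lower in the latter. *Slfn5*, a Schlafen gene, and *Hes1*, a Notch target, were higher in both macrophage eKO libraries (65.4 and 93.3 CPM (controls) against 144 and 122 CPM (eKO) and 109 and 87.0 CPM (controls) against 196 and 144 CPM (eKO)) but were not called in macrophages alone.

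**Figure D5:**
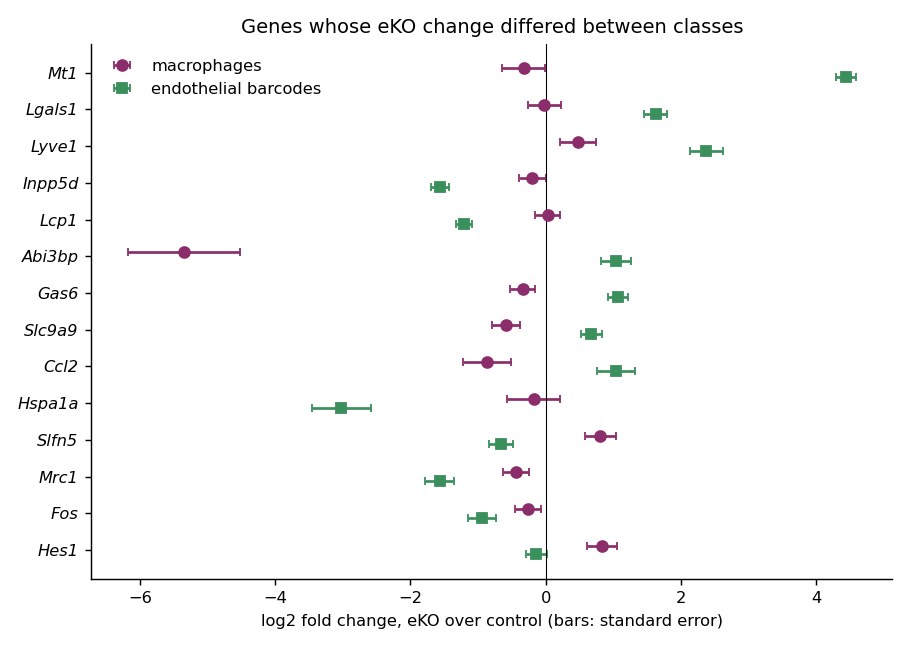
Log2 fold change of eKO over control in macrophages (circles) and endothelial barcodes (squares) for 14 of the 15 genes whose class-by-genotype term passed, with standard errors as bars; *Mmp16* was not tested in macrophages alone. *Mt1* lies at -0.33 in macrophages and 4.44 in endothelial barcodes.

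The same term was tested against the C1q-negative leukocytes, whose neutrophil genes were far higher in both eKO libraries, as given above. The part of this change in their makeup was not tested. Of 7526 genes 2 passed (0.0266%, edgeR): *Hba-a2*, an alpha-globin, and *Hbb-bt*, a beta-globin. In macrophages *Hba-a2* was at 34.0, 17.4, 1576 and 35.0 CPM, and in C1q-negative leukocytes at 830.2, 0, 15.5 and 21.4 CPM. *Hbb-bt* was at 37.7, 19.0, 2169 and 48.1 CPM in macrophages and 816, 0, 35.0 and 28.6 CPM in C1q-negative leukocytes. Each value over 100 CPM stood in 1 library of its class, eKO 1 for macrophages and control 1 for the others. DESeq2 called 0 genes, and 0 passed in edgeR without barcodes in which hemoglobin reached 1% of UMIs (261 at an unadjusted p under 0.05). The count was 70 without control 1, 42 without control 2, 8 without eKO 1 and 11 without eKO 2, and without control 1 the differences of *Hba-a2* and *Hbb-bt* were reversed (-0.89 and -1.34).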

How the data were processed

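The deposited matrices hold UMI counts that the authors made with Cell Ranger 7.1.0 on mm10; their notes name Seurat 4.3.0 for later steps. The authors' methods name CellBender for background RNA and DoubletFinder for doublets, but not whether the deposited counts precede these steps, so a gene without UMIs may have lost some and shares in other cells may understate background. UMIs were summed over the macrophages of each library and tested with edgeR 4.0.16 (TMM scaling, quasi-likelihood), with DESeq2 1.42.0 beside it, in R 4.3.3; adjusted p is Benjamini-Hochberg over all genes tested. Shares used cells thinned to 2000 UMIs (seed 0), exact permutation over libraries and exact Clopper-Pearson 95% intervals, which cover counting error only. No doublet caller was run: the limits on cardiomyocyte and endothelial genes were set against mixed barcodes, and barcodes with over 3 mesenchymal UMIs were left out as an alternative. The promoter sequence is from RefSeq. The members and gene lists were chosen with earlier results of these data known. Named genes are *Ets1*, the genes used for the choice, the 5 genes of smallest p in each direction between the genotypes, the 10 of largest change in each direction of the *Lyve1* split, the 5 of smallest p in each class-by-genotype test, of each list the members that passed and the 3 most abundant by UMI count, and genes that check the libraries. Genes named outside this rule, such as *Mertk*, *Cd36*, *Igf1*, *Elf1*, *Cdc20* and those given as having no UMI, were chosen after their values were seen. Some genes that the rule would name are not reported. The code was tested on simulated data.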

Additional observations from a re-analysis of the deposited data

Results flagged for a closer look

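The fold change of *Ets1* eKO over control differed between macrophages and endothelial barcodes for *Mt1* (macrophages minus endothelial barcodes, -4.67 on the log2 scale), *Lgals1* (-1.55), *Lyve1* (-1.85), *Inpp5d* (1.41) and *Lcp1* (1.29). It differed between macrophages and C1q-negative leukocytes for *Hba-a2* (9.06) and *Hbb-bt* (8.54); 1 cell of eKO 1 held 9763 of its 10008 hemoglobin UMIs, neither gene passed with DESeq2 or without barcodes of 1% hemoglobin, and the signs turned without control 1 (-0.89 and -1.34).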

How the results depend on the processing

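Counts of genes that passed, by change of processing: between the genotypes 0 became 119 without the low count filter, 8 without mesenchymal barcodes and 2 to 247 with 1 library left out. Against endothelial barcodes 15 became 124 without the filter, 24 with the stricter gate, 5 with DESeq2, 56 without mesenchymal barcodes and 1 to 349 with 1 library left out. Against C1q-negative leukocytes 2 became 0 with DESeq2, 4 with total count scaling, 14 without the filter, 8 with the stricter gate, 5 without mesenchymal barcodes, 0 without barcodes of 1% hemoglobin and 8 to 70 with 1 library left out. In the *Lyve1* split 289 of 2448 genes tested became 114 of 987 with DESeq2. It became 466 without the filter, 190 with the stricter gate and 157 to 234 with 1 library left out.

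The difference in macrophage share (0.564 points) was 0.424 with the stricter gate, 0.413 with at most 5% mitochondrial UMIs, 0.401 with at least 12 C1q UMIs, 1.29 over barcodes low in cardiomyocyte genes and 0.564 with a replicate block. The *Lyve1*-positive share difference was 3.87 at 1000 UMIs and -2.25 with all UMIs, and that of cycling cells -7.62 with all UMIs. With 1 library left out, *Ets1* in macrophages ranged from -0.71 to 0.031, *Hba-a2* from -0.89 to 10.41 and *Hbb-bt* from -1.34 to 9.57, with reversed signs at 1 end; the cause was not tested.

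Libraries of the same number share only that number: with the block 5 genes passed between the genotypes, and the pairing correlation was -0.0147 (Pearson) and -0.0529 (Spearman). Some alternatives, such as those on mesenchymal and hemoglobin barcodes, were chosen after seeing the data. With 2 pools per group, genotype cannot be told apart from pool, sex mix or depth. Where 1 library is left out, the lone library is assumed to vary like the other group. Over the other settings, the named genes between the genotypes kept direction and call in 126 cases and passed in 28; those of the *Lyve1* split kept both in 176 and lost the call in 13; those of the class-by-genotype tests kept both in 56 and lost the call in 12. In these counts a gene to which DESeq2 gave no adjusted p stands as not called. Of the other shares, 96 values stayed within 1 SD and 24 moved by more.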

Other observations

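Genes linked to *Tie2*-type macrophages were low apart from *Nrp1*. *Cd34* was at 31.5, 47.5, 65.2 and 60.1 CPM and *Nrp2* at 31.5, 36.4, 24.3 and 27.3 CPM in the 4 libraries. Of 3 such genes tested, *Cd34* was higher and 0 lower at an unadjusted p under 0.05 in edgeR, against 2.5 and 3.73% of all genes. The adjusted threshold was passed by 0.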
